A study of Mus musculus with 6 samples.

Results

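The Usp genes encode ubiquitin-specific proteases, the family that makes up most of the enzymes that remove ubiquitin from other proteins. They were described here as a family in gonads of male mouse embryos at stage E13.5, counted in embryonic days. Every row of the deposited expression table whose symbol is Usp followed by a number and at most 1 letter was taken, except Usp29, Usp9x and Usp9y, which gave 46 genes of the 16862 listed. The study compared 3 wild-type libraries, numbered 1, 3 and 4, with 3 knockout libraries, numbered 5, 7 and 8, from embryos lacking L-Pgds and H-Pgds (L/H-Pgds-/-), the enzymes that make prostaglandin D2. All 6 came from C57BL/6 mice, from embryos that the labels call littermates, and each was made from total RNA of frozen gonads. The knockout removes both enzymes from the whole embryo as far as the labels say, and they do not name the deleted exons or which libraries share a litter. Nothing states that each library came from a separate embryo, so the p-values measure only the spread between these 6 libraries.

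Ubiquitin is attached to proteins by a cascade of E1, E2 and E3 enzymes, and deubiquitinases cut it off again, which can rescue a protein from the proteasome, end a signal or recycle ubiquitin. The Usp enzymes are cysteine proteases: a cysteine in a conserved stretch of the catalytic domain attacks the bond between ubiquitin and its target, helped by a histidine further along. In the fetal testis of this age the germ cells sit inside cords built by Sertoli cells and are entering mitotic arrest. Members of the family act on histones H2A and H2B, on p53 and DNA repair proteins, on receptors and endosomes, and on ubiquitin itself.

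The stretch around the catalytic cysteine is shown because it is the part that all members share and because it sets 1 of them apart. It was read from the longest open reading frame of each gene's longest protein-coding transcript in GENCODE vM21. Shown are 36 bases per gene, 5′ to 3′, with the codon at the catalytic position in capitals. A search pattern found a stretch in all 46 genes. It asked for a cysteine at that position, with added forms for Usp46, Usp47, Usp53 and Usp54. Another added form, for Usp39, had aspartate there. That 45 genes had a cysteine codon, TGC or TGT, and 1 did not was thus set by the pattern and is no test. Usp39 had GAC, a codon for aspartate. Usp53 and Usp54, long listed as inactive, have the cysteine codon. The members on which the results turn read as follows.
Usp53: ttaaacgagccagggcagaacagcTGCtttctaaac
Usp54: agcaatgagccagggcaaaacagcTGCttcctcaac
Usp34: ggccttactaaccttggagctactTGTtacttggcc
Usp26: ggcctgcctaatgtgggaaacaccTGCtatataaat
Usp12: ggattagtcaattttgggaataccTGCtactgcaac
Usp33: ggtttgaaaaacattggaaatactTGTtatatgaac
Usp5: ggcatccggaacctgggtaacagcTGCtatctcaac
Usp39: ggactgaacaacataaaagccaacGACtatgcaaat

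Values are the authors' upper-quartile normalised pseudo-counts, which are fractional, so the number of reads behind them is unknown and no counting interval can be given. They summed to between 21657342 and 23734462 per library, and no 2 libraries were identical. Ptgds, which encodes L-Pgds, averaged 7803 ± 1114 (SD, n = 3) in wild type and 7.39 ± 6.81 (n = 3) in knockout. The values of Hpgds, the gene for H-Pgds, ran from 45.0 to 55.0 in wild type and from 87.3 to 104 in knockout. Since the deleted exons are not known, this gene-wide value is no check on the loss of H-Pgds. Markers of Sertoli cells (9 of 9), germ cells (10 of 10) and fetal Leydig cells (8 of 8) were all above a value of 1 in at least 1 library. Counts of markers past the threshold of the test described in the next paragraph stand against 17.3% of all genes higher and 17% lower. Summed over each list, macrophage markers lay at 957 to 1185 in wild type and 745 to 801 in knockout (2 of 6 genes lower, and 1 without wild-type library 1), and markers of the ovarian granulosa lineage at 4760 to 5390 and 3085 to 3305 (2 of 5 lower). When values were corrected for the length and GC content of transcripts, as described further on, 1 gene of either list was lower, and no gene of either was below 1 in all libraries. Sums overlapped for germ cells, at 22212 to 35275 and 24294 to 40975, for fetal Leydig cells, at 81383 to 123531 and 62571 to 85188 (3 of 8 lower, and 0 without wild-type library 1), and for endothelium, at 5590 to 7686 and 7432 to 7779. Of the 6 endothelial markers Kdr (log2 0.79, limma adjusted p = 0.0052) and Flt1 (1.05, adjusted p = 0.00295) were higher, also after that correction (0.49, adjusted p = 0.0468, or 0.0718 without wild-type library 1, and 0.74, adjusted p = 0.0189), and Emcn was lower (-0.35, adjusted p = 0.0411, and up to 0.13 when 1 library was left out). Emcn too stayed lower after that correction (-0.53, adjusted p = 0.0139, and -0.65, adjusted p = 0.00218, without wild-type library 1). Higher and lower were 1 and 1 of 9 Sertoli markers, 2 and 2 of 8 interstitial, 0 and 0 of 5 erythroid, and 1 and 1 of 6 mesonephric epithelium markers. After that correction they were 1 and 1, 1 and 1, 0 and 0, and 1 and 0, where 6.08% and 6.64% of all genes were. Without wild-type library 1 they were 0 and 3, 2 and 2, 0 and 0, and 1 and 4, where 15.5% and 14.3% were. In whole gonads fewer cells of a type and less RNA per cell cannot be told apart, and the part of these markers in the results for the Usp genes was not tested.

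Of the 46 Usp genes, 45 reached a value of 10 in at least 3 libraries and were tested, with limma on log2(value + 1) and p-values adjusted over all 15116 genes that passed. In the knockout 24 of the 45 rose (53.3%), where 17.3% of all genes tested rose, and 2 fell, Usp5 and Usp39 (4.44%), where 17% of all genes fell. The other 19 did not pass the threshold of 0.05. The median log2 change was 0.31 over the 45 Usp genes and -0.03 over all genes. The rises were modest: 3 genes, Usp53, Usp26 and Usp34, rose by at least 2-fold, and 9 by at least 1.5-fold. The 3 wild-type and 3 knockout libraries did not overlap for 34 of the 45, 30 of them higher in knockout (24.7% of all genes) and 4 lower, Usp2, Usp5, Usp21 and Usp39 (25.6% of all genes). A log2 change above 0 was seen for 35 of the 45, and for 47.4% of all genes. With values scaled to equal totals 29 Usp genes rose, where 23.2% of all genes did, and 0 fell, where 11.2% did.

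**Figure D1:**
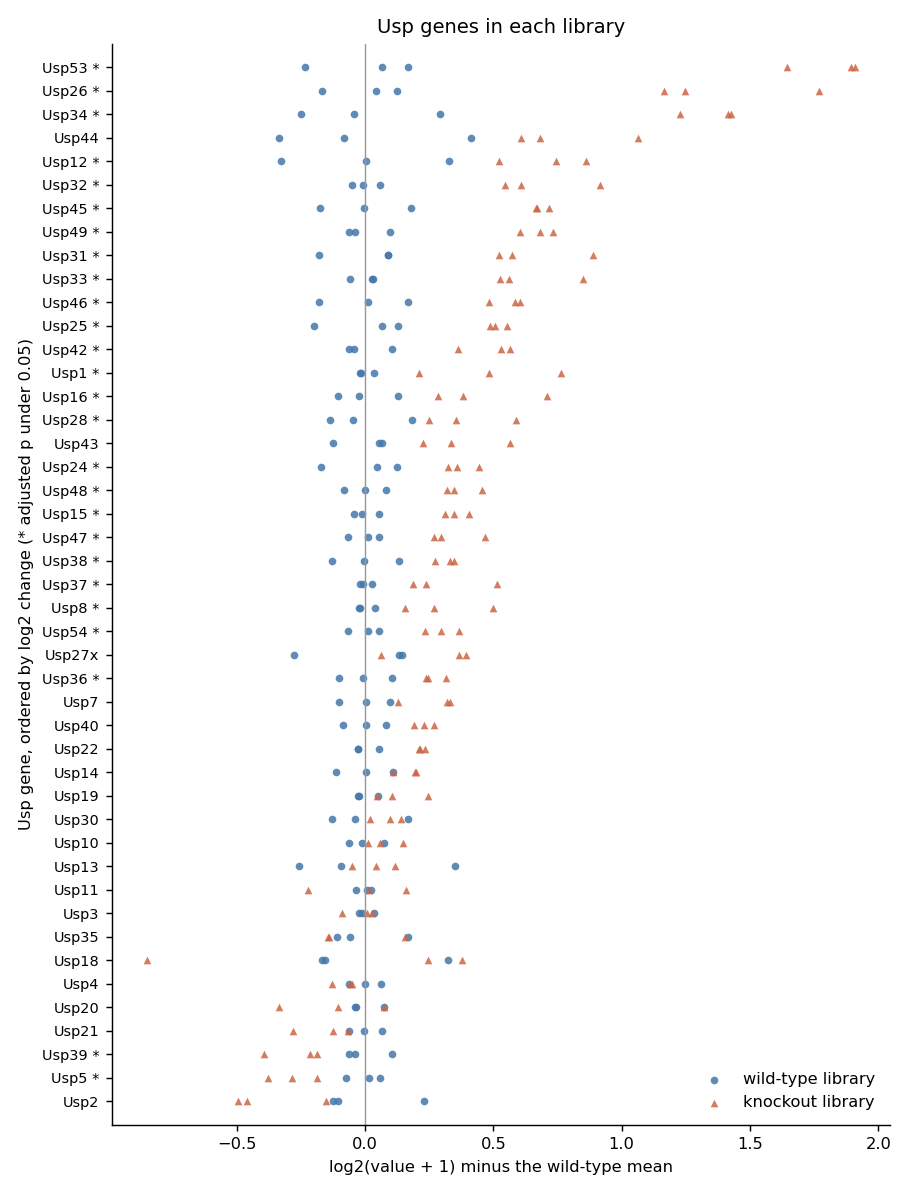
Each of the 45 tested Usp genes is a line, ordered by log2 change, with log2(value + 1) of each library minus the wild-type mean on the horizontal axis. Circles are the 3 wild-type libraries and triangles the 3 knockout libraries. An asterisk marks an adjusted p under 0.05, and 35 of the 45 genes have a knockout mean to the right of 0.

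No single library carried this shift. The median deviation of the 45 genes from their own mean over the 6 libraries was -0.18, -0.11 and -0.17 on the log2 scale in wild-type libraries 1, 3 and 4, and 0.16, 0.15 and 0.15 in knockout libraries 5, 7 and 8. The highest knockout value came from library 5 for 13 genes, from library 7 for 15 and from library 8 for 17. Leaving out 1 library at a time gave between 15 genes higher (without wild-type library 4, where 10.8% of all genes were higher) and 20 (without wild-type library 3, where 16.5% of all genes were), and 14 of the 24 rises (58.3%) held in all 6 of these fits, as did 57.6% of the rises of all genes. Without wild-type library 1, which stands apart in the sums of erythroid markers (37366, against 83973 to 140611 in the other 5), fetal Leydig markers (123531, against 62571 to 87120) and interstitial markers (44928, against 34344 to 35853), 18 Usp genes were higher, where 15.5% of all genes were, and 0 were lower, where 14.3% were.

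The steepest rise was that of Usp53, a protein of tight junctions whose loss deafens mice. Its value was 64.1, 68.8 and 51.8 in wild-type libraries 1, 3 and 4 and 229.6, 193 and 232 in knockout libraries 5, 7 and 8. Every knockout library was well above every wild-type one. The mean went from 61.5 ± 8.78 to 218 ± 21.9 (SD, n = 3 each), 3.52-fold (log2 1.81, SE 0.19, limma adjusted p = 0.000802). The gene (NCBI gene 99526) spans 122636519 to 122687365 of chromosome 3 in mm9, the build of all gene positions given here. Its relative Usp54 was far less changed: 573, 589.8 and 542 in wild type and 667, 732 and 698 in knockout, with no overlap (log2 0.30, adjusted p = 0.0408). The call for Usp54 ended without any 1 of the 6 libraries (adjusted p between 0.0567 and 0.135). Usp39, which helps to assemble the spliceosome and lacks the catalytic cysteine codon, fell. It held 2030.4, 1998 and 2244 in wild type and 1800.0, 1591 and 1836 in knockout, so the groups did not overlap (log2 -0.26, SE 0.09, adjusted p = 0.0492). That call too ended when any 1 library was left out (adjusted p between 0.0544 and 0.18).

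Usp26, the X-linked member known for its expression in the testis and its germ cells, was low but clearly apart. It held 25.3, 23.9 and 20.5 in wild type and 53.1, 81.1 and 56.2 in knockout. Every knockout library exceeded every wild-type one. The mean went from 23.2 ± 2.49 to 63.5 ± 15.3 (SD, n = 3 each), 2.63-fold (log2 1.39, SE 0.27, adjusted p = 0.00421). The gene (NCBI gene 83563) spans 49107136 to 49154410 of chromosome X. Of the 10 germ cell markers 2 were higher (20%, where 17.3% of all genes were) and 0 lower (where 17% were). Without wild-type library 1, 4 were higher, where 15.5% of all genes were. When corrected for transcript length and GC content, 0 were higher, where 6.08% of all genes were, and 0 were lower, where 6.64% were. The sums of these markers overlapped between the genotypes as given above.

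The counts by role given in turn stand against the same 17.3% and 17% of all genes, and no role was tested against another. Of the 7 members that act in signalling, 4 rose and 0 fell. Usp34, which stabilises axin in the Wnt pathway, had the third steepest rise of the family. It held 613, 774 and 531 in wild type and 1482, 1684 and 1699 in knockout. The mean rose 2.56-fold, from 639 ± 123 to 1622 ± 121 (SD, n = 3 each; log2 1.36, SE 0.14, adjusted p = 0.000767). The gene (NCBI gene 17847) spans 23206895 to 23387222 of chromosome 11. Of the 50-base stretches of its longest coding transcript, 16.8% also occur in transcripts of Ahsa2 on either strand. Ahsa2 itself had a log2 change of 0.26 that did not pass (adjusted p = 0.168). Usp15, which acts on TGF-beta receptors and their Smad effectors, rose 1.28-fold: 1092, 1168 and 1117 in wild type and 1491, 1429 and 1396 in knockout, without overlap (log2 0.35, adjusted p = 0.0101). Its close relative Usp4 overlapped between the genotypes, at 4895, 4482 and 4685 against 4523, 4285 and 4496 (log2 -0.08, adjusted p = 0.462). Usp25 (log2 0.52, adjusted p = 0.00944) and Usp38 (log2 0.32, adjusted p = 0.0311) also rose, the latter with its call kept only without wild-type library 3 among the 6 fits (up to 0.113). Of the 50-base stretches of Usp38, 24.2% also occur in transcripts of Gm9725. Usp2, which stabilises cyclin D1, was lower without passing (log2 -0.37, adjusted p = 0.0885), and Usp18, which removes the ubiquitin-like Isg15, was low and overlapping, between 9.51 and 23.6.

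**Figure D2:**
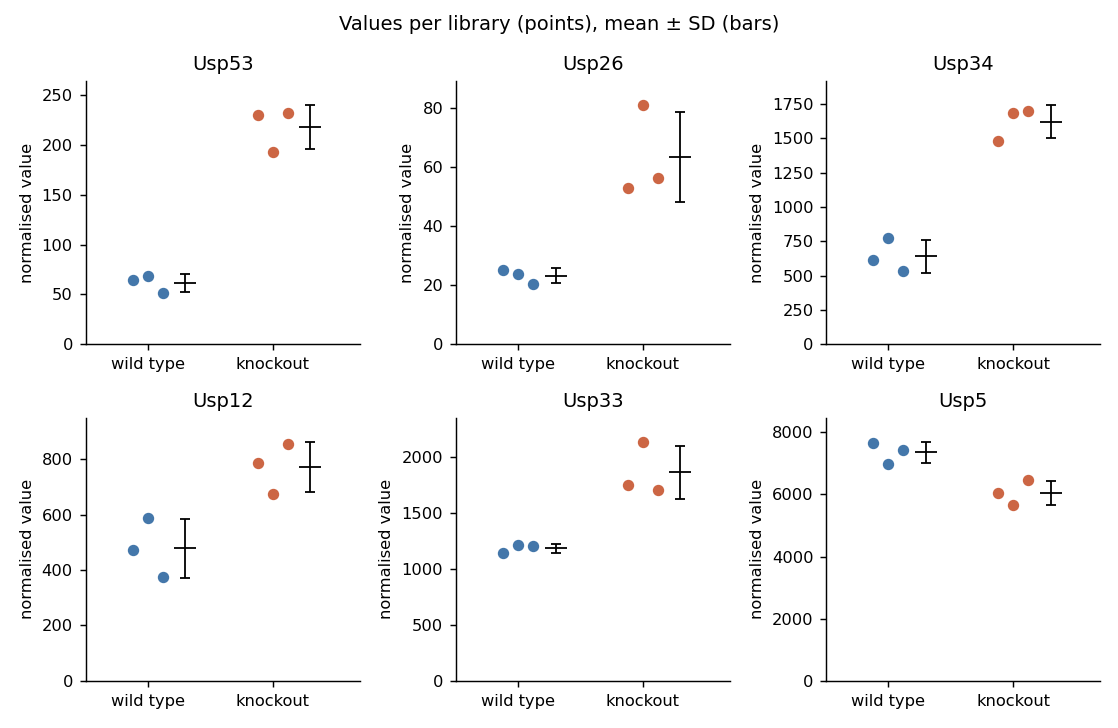
Normalised values on linear axes that start at 0, 1 panel per gene. Points are the 3 wild-type and 3 knockout libraries and the bars beside them the mean and SD. The 6 genes are the 5 that rose both with and without a correction for transcript length and GC content and the most abundant member, Usp5, whose knockout libraries all lie below its wild-type ones.

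Among the members that act on histones H2A and H2B, 6 of 11 tested rose and 0 fell. Usp12 and Usp46, which are switched on by the WD-repeat proteins Wdr48 and Wdr20, both rose. Usp12 held 471, 589 and 374 in wild type and 787, 674 and 855 in knockout, with means of 478 ± 108 and 772 ± 91.1 (SD, n = 3 each; log2 0.71, SE 0.16, adjusted p = 0.0089). The gene (NCBI gene 22217) spans 147546388 to 147606532 of chromosome 5. Usp46 held 375, 477 and 429 in wild type and 646, 594 and 637 in knockout (log2 0.56, SE 0.12, adjusted p = 0.00652). For neither gene did the libraries of both genotypes overlap. Usp49, which removes ubiquitin from H2B, held 280.5, 308 and 276 in wild type and 462, 438 and 478 in knockout (log2 0.67, SE 0.12, adjusted p = 0.00285), and 51.8% of its 50-base stretches are shared with the transcript model Gm20517. Usp42 held 831, 934 and 843 and then 1116, 1286 and 1255 (log2 0.49, adjusted p = 0.00497). Usp36, a nucleolar enzyme, held 1042, 1126 and 976 and then 1241, 1235 and 1301 (log2 0.27, adjusted p = 0.0454), also without overlap. The call for Usp36 ended without wild-type library 1 or 4 or without any 1 knockout library (adjusted p up to 0.166). Usp16, which acts on H2A around mitosis, rose 1.37-fold (adjusted p = 0.0171, and 0.0733 without wild-type library 4).

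The deubiquitinase of the SAGA coactivator, Usp22, lay just outside the threshold. It held 4406, 4669 and 4409 in wild type and 5200.1, 5206 and 5282 in knockout, with no overlap (log2 0.22, SE 0.08, adjusted p = 0.05003). Usp51, a relative of Usp22, was the only member under the filter on low values. It held 2.72, 2.79 and 0.357 in wild type and 15.3, 8.38 and 12.6 in knockout, so its libraries did not overlap either, at levels too low to test here. Usp44, which holds Cdc20 in the mitotic checkpoint, passed the filter through its 3 knockout libraries and wild-type library 1. Its knockout libraries ranged from 11.6 to 16.3 and its wild-type libraries from 5.56 to 10.03, and it did not pass (log2 0.78, 95% interval -0.12 to 1.69, adjusted p = 0.163). Usp3 and Usp21, both active on H2A, had log2 changes of -0.02 and -0.16 that did not pass.

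Of the 8 members that act in the DNA damage and p53 response, 5 rose and 0 fell. Usp45, which trims the repair nuclease subunit Ercc1, rose most. It held 254, 325 and 286 in wild type and 472, 456 and 457 in knockout, without overlap (log2 0.68, SE 0.13, adjusted p = 0.00367). Usp48 rose 1.30-fold (adjusted p = 0.00789), and so, at 1.40-fold, did Usp1, which acts on Fancd2 and Pcna (adjusted p = 0.0146, and 0.0532 without wild-type library 4). Of the 50-base stretches of Usp1, 22.8% also occur in transcripts of Gm5841. Usp47 rose 1.27-fold (adjusted p = 0.0127, and 0.0602 without wild-type library 4). Usp28 rose 1.32-fold (adjusted p = 0.0238), with a call that ended without wild-type library 3 or 4 or knockout library 5 or 7 (up to 0.101). Usp7, which protects Mdm2 and p53, held 4183, 4504 and 4801 in wild type and 5646, 4909.6 and 5605 in knockout. Its groups did not overlap and it lay just outside the threshold (log2 0.26, SE 0.09, adjusted p = 0.052). Usp10 and Usp11 overlapped between the genotypes, with log2 changes of 0.07 and -0.02.

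Among the members tied to membranes, endosomes and mitochondria, 3 of 7 rose and 0 fell. Usp32, a membrane-bound enzyme of late endosomes, held 726, 783 and 749 in wild type and 1098, 1419 and 1149 in knockout (log2 0.69, SE 0.11, adjusted p = 0.00236). Usp33, which acts on Robo1 and on receptors that are recycled to the surface, held 1139, 1210.2 and 1208 in wild type and 1748, 2136 and 1706 in knockout. Neither gene overlapped between the genotypes. The mean of Usp33 went from 1186 ± 40.4 to 1863 ± 237 (SD, n = 3 each; log2 0.64, SE 0.10, adjusted p = 0.00222), and 33.5% of its 50-base stretches are shared with the transcript model Gm43857. The gene (NCBI gene 170822) spans 152009442 to 152056578 of chromosome 3. Its relative Usp20 overlapped, at 815, 755 and 754 in wild type and 719, 614 and 815 in knockout (log2 -0.12, adjusted p = 0.451). Usp8, which works with the Stam adaptors on endosomes, rose 1.24-fold (adjusted p = 0.0381), a call that was kept only without knockout library 5 among the 6 fits (up to 0.111). Usp19, a tail-anchored enzyme of the endoplasmic reticulum, held 5559, 5276 and 5257 in wild type and 5536, 5764 and 6356 in knockout, which overlap (log2 0.13, adjusted p = 0.256). Usp30, an enzyme of the mitochondrial outer membrane, and Usp35 had log2 changes of 0.09 and -0.04.

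Of the 3 members that handle free ubiquitin or work on the proteasome, 0 rose and 1 fell. Usp5, which takes apart chains of ubiquitin that are no longer bound to a protein, fell. It held 7658, 6974 and 7426 in wild type and 6034, 5661 and 6459 in knockout. All 3 knockout libraries were below all wild-type ones. The mean went from 7353 ± 348 to 6051 ± 399 (SD, n = 3 each), 1.22-fold lower (log2 -0.28, SE 0.09, adjusted p = 0.0305). The call ended without wild-type library 1 or 4 or knockout library 5 or 7 (adjusted p up to 0.103). The gene (NCBI gene 22225) spans 124765037 to 124779465 of chromosome 6. Usp14, the enzyme docked on the proteasome, held 2231, 2418 and 2599 in wild type and 2761, 2767 and 2604 in knockout, which nearly meet (log2 0.17, adjusted p = 0.158). Usp13 overlapped, with wild-type values from 103 to 158 and knockout values from 119.5 to 134.

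Per kilobase of transcript, the scale on which genes can be compared, Usp5 had the highest mean level of the family over the 6 libraries, 2086. It was followed by Usp4 at 1246, Usp19 at 1174, Usp22 at 1097 and Usp7 at 1041. Of these 5 abundant members, Usp5 fell and none rose past the threshold, where 17% of all genes fell and 17.3% rose. Usp22 and Usp7 were higher and lay just outside it (limma adjusted p = 0.05003 and 0.052). The fall of Usp5 did not hold in every fit without 1 library (adjusted p up to 0.103). The lowest levels per kilobase among the tested members were those of Usp44 (4.26), Usp18 (10.3) and Usp26 (10.5). On this scale the mean of Usp53 was 9.95 for wild-type and 35.3 for knockout libraries.

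The remaining rises were in Usp31 (496, 495 and 411 in wild type and 694, 863 and 669 in knockout, log2 0.66, SE 0.13, adjusted p = 0.00473), in Usp24 and in Usp37. Usp24 rose 1.30-fold (adjusted p = 0.0172, and 0.0635, 0.0538 and 0.0537 without wild-type library 1, knockout library 5 and knockout library 8). Usp37, which acts on cyclin A, rose 1.24-fold (adjusted p = 0.0345), a call that was kept only without knockout library 8 (up to 0.0851 in the other fits). On the mm9 coordinates of the table the gene span of Usp37 overlaps those of Rqcd1 and Plcd4, and that of Usp54 overlaps 1810062O18Rik. The library kit does not record strand, so reads of overlapping genes cannot be told apart. Just outside the threshold were also Usp40 (log2 0.23, adjusted p = 0.062) and Usp43 (log2 0.38, adjusted p = 0.0674), both without overlap.

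The log2 change of all genes followed the length and GC content of the transcript, and the Usp genes are long. Their longest coding transcripts had a median of 4726 nt (1771 to 12200 nt), against 3121 nt for all genes, and a median GC content of 48.5% against 50.6%. When all genes were divided into 5 groups of equal number by length, 14 of the 16 Usp genes in the longest group rose, where 45.5% of all genes did. In the next group 8 of 21 rose, where 25.4% of all genes did, and in the middle group 2 of 4, where 12.6% did. Of the 4 Usp genes in the 2 shortest groups 0 rose, where 0.657% of all genes in the shortest and 4.5% in the second shortest did. In the second shortest group 1 of 3, Usp39, fell, where 23.9% of all genes did, and in the middle group 1 of 4, Usp5, fell, where 10.3% did. Across the 45 Usp genes the log2 change correlated with length at Pearson's r = 0.40 and Spearman's rho = 0.38, and with GC content at -0.63 and -0.66. Over all genes the same figures were 0.55 and 0.60, and -0.47 and -0.52. These are descriptions across genes of the same 6 libraries, and genes are not independent replicates.

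**Figure D3:**
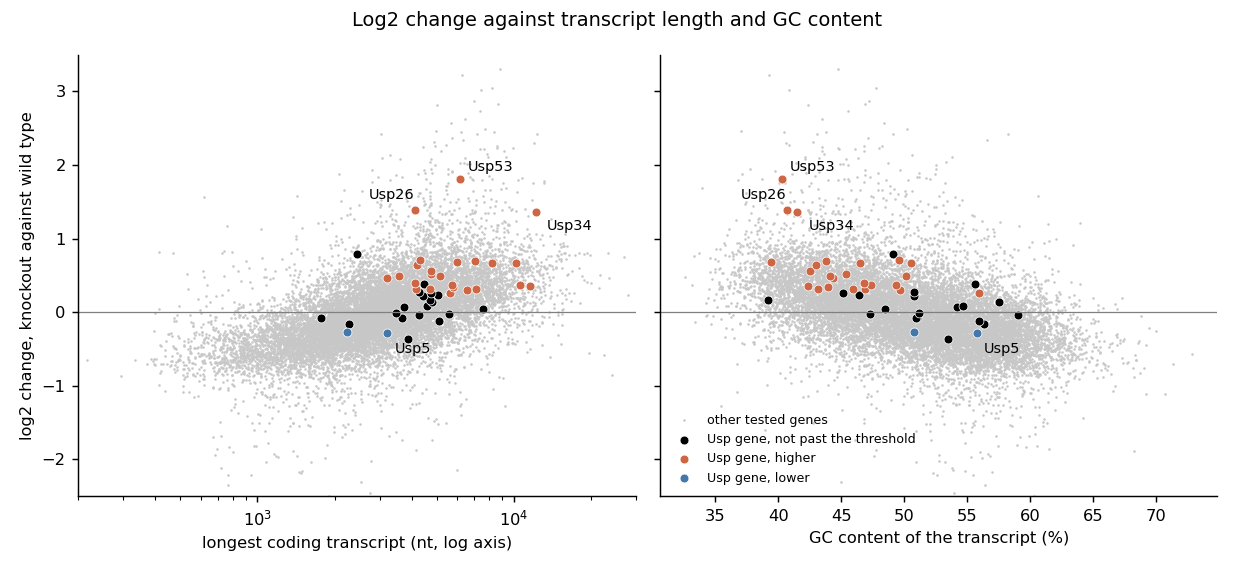
Log2 change between the genotypes against transcript length (left, log axis) and GC content (right). Grey points are the other tested genes, orange and blue points the Usp genes that rose and fell, and black points those past no threshold. Usp53, Usp26 and Usp34 lie high at GC contents of 40.3%, 40.7% and 41.5%, and Usp5 lies low at 55.7%.

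When the trend on these properties was taken out of each library, 5 Usp genes were higher, where 6.08% of the 14449 genes with both properties were, and 2 were lower, where 6.64% were. The median log2 change of the 45 Usp genes was then 0.10, against -0.01 over all genes. Of the 24 rises 5 remained (20.8%), where 28.8% of all higher genes remained. Usp53 stayed highest (log2 1.24, SE 0.19, adjusted p = 0.00588), followed by Usp26 (0.98, SE 0.23, adjusted p = 0.0265), Usp34 (0.72, SE 0.11, adjusted p = 0.00544), Usp12 (0.52, SE 0.15, adjusted p = 0.048) and Usp33 (0.28, SE 0.07, adjusted p = 0.0305). Of the 19 rises that ended, 14 kept a log2 change above 0, and 5 did not: Usp15, Usp24, Usp37, Usp47 and Usp54. Usp49 (0.33, adjusted p = 0.0598) and Usp42 (0.25, adjusted p = 0.0624) lay just outside. The falls of Usp5 and Usp39 did not pass either, at -0.14 (adjusted p = 0.201) and -0.12 (adjusted p = 0.34).

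After this removal 2 other members were lower. Usp3, a histone H2A enzyme, held 939.9, 910.3 and 901 in wild type and 934, 861 and 922 in knockout, and its log2 change went from -0.02 to -0.37 (SE 0.09, adjusted p = 0.0225). That of Usp14 went from 0.17 to -0.34 (SE 0.09, adjusted p = 0.0342), so the direction of Usp14 turned. The deposited values of Usp3 overlap between the genotypes, and 45.3% of the 50-base stretches of Usp14 also occur in transcripts of Thoc1. With wild-type library 1 left out as well, 4 members were higher, where 5.83% of all genes were, and 2 were lower, where 6.1% were. Usp33 was the rise that ended (adjusted p = 0.0545).

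**Figure D4:**
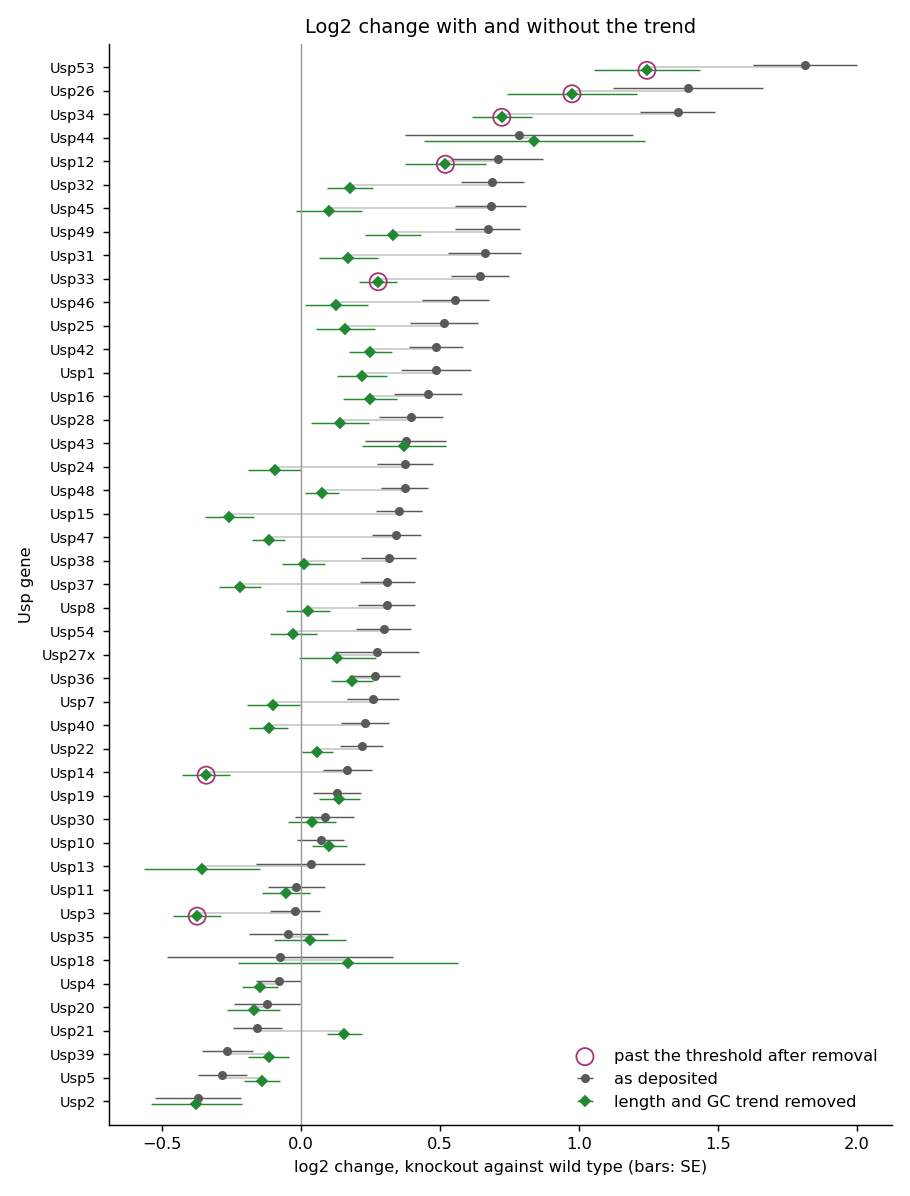
Log2 change of each tested Usp gene on the deposited values (grey circles) and with the trend on length and GC content taken out (green diamonds), with bars of 1 SE. Rings mark the 7 genes past the threshold after removal, Usp53, Usp26, Usp34, Usp12 and Usp33 above 0 and Usp14 and Usp3 below it.

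Pairs of closely related members were compared within each library, as the log2 ratio of both genes. Of 14 pairs 5 had wild-type and knockout ratios that did not overlap, and for each of these an exact two-sided permutation test gave p = 0.1, the smallest that 3 against 3 allows, so no pair could pass 0.05. The libraries did not overlap for 24.7% of all single genes (higher) and 25.6% (lower), and no such share was computed for other pairs. The ratio of Usp53 to Usp54 was -3.14, -3.08 and -3.36 in wild type and -1.54, -1.92 and -1.58 in knockout, a shift of 1.52 (SE 0.17, 95% interval 1.16 to 1.87). The ratio of Usp20 to Usp33 was -0.48, -0.68 and -0.68 and then -1.28, -1.80 and -1.06, a shift of -0.77 (SE 0.19, interval -1.15 to -0.38). With the trend on length and GC content taken out, 4 of the 14 pairs stood apart, 3 of them also on the deposited values. These 2 pairs were among the 3, with shifts of 1.27 (SE 0.17) and -0.45 (SE 0.16) after removal.

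The ratio of Usp4 to Usp15 shifted by -0.43 (SE 0.16, interval -0.77 to -0.10) and became 0.11 (interval -0.20 to 0.43) after removal, where the libraries overlapped. Usp11, another relative of Usp15, held 3231, 3106 and 3200.0 in wild type and 3209, 2726 and 3548 in knockout. The ratio of Usp11 to Usp15 shifted by -0.37 (interval -0.72 to -0.02). After removal the shift was 0.20, in the other direction but with an interval that includes 0 (-0.11 to 0.52). The libraries did not overlap either time. The shift of the ratio of Usp36 to Usp42 was -0.22, with an interval that includes 0 (-0.55 to 0.11). The ratio of Usp12 to Usp46 overlapped on the deposited values, with a shift of 0.15 and an interval of -0.21 to 0.52, and after removal the shift was 0.39 (interval 0.06 to 0.73). That of Usp44 to Usp49 shifted by 0.11 (interval -0.31 to 0.53), and by 0.51 (interval 0.14 to 0.87) after removal, with libraries that overlapped both times.

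**Figure D5:**
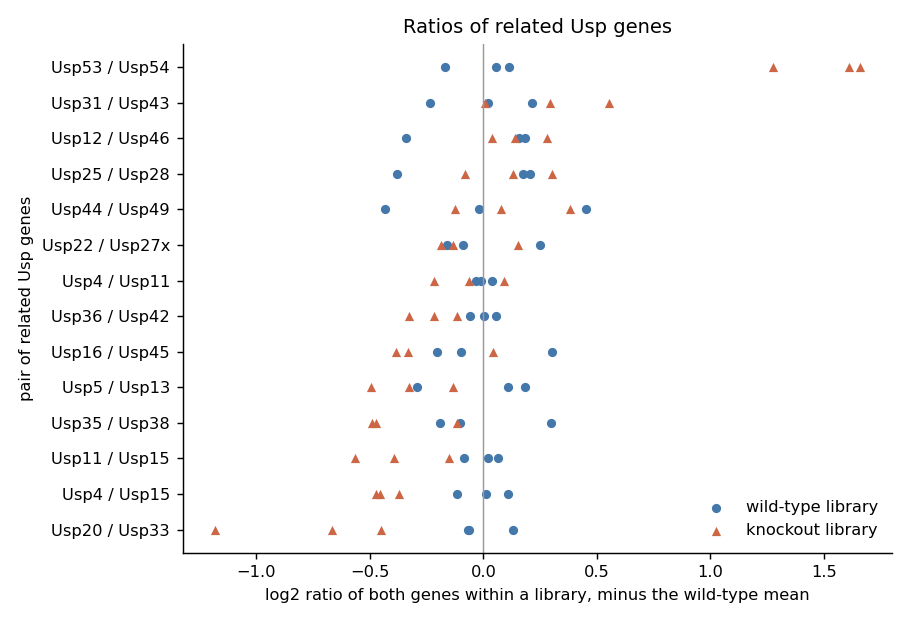
Log2 ratio of 2 related Usp genes within each library, minus the wild-type mean of that ratio, for 14 pairs. Circles are the 3 wild-type libraries and triangles the 3 knockout libraries. Usp53 / Usp54 lies farthest to the right and Usp20 / Usp33 farthest to the left, with shifts of 1.52 and -0.77.

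Deubiquitinases of other families, for which the same shares of all genes apply, moved in both directions. Of 34 tested, 9 rose and 5 fell, with a median log2 change of 0.09. Yod1, an enzyme of endoplasmic reticulum quality control, rose from 18.4 ± 6.61 to 49.0 ± 5.33 (SD, n = 3 each; log2 1.42, SE 0.32, adjusted p = 0.0078). Mysm1, which acts on H2A, rose from 413 ± 65.1 to 808 ± 26.5 (log2 0.98, adjusted p = 0.00147), and Otud4 from 1899 ± 79.2 to 3585 ± 488 (log2 0.91, adjusted p = 0.00105). The falls of Josd2 (log2 -0.83, adjusted p = 0.00321) and Mpnd (-0.56, adjusted p = 0.00592) held in each fit without 1 library, while Otub2 (-0.54, adjusted p = 0.0378) had adjusted p-values up to 0.113. With the trend on length and GC content taken out, 1 rose, Otud4 (log2 0.37, adjusted p = 0.0118), and 1 fell, Brcc3, a Lys63-specific enzyme of DNA repair complexes (-0.64, adjusted p = 0.00358, from -0.09 and 0.50 on the deposited values).

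Of 32 partners and substrates of the Usp enzymes, 13 rose and 4 fell, where 17.3% and 17% of all genes did, with a median log2 change of 0.15. Wdr20a and Wdr48, the activators of Usp12 and Usp46, rose by 0.55 (adjusted p = 0.00775) and 0.29 (adjusted p = 0.0226) on the log2 scale, the latter with adjusted p-values up to 0.0768 when 1 library was left out. Tgfbr1 (log2 0.65, adjusted p = 0.00291), a receptor that Usp4 and Usp15 act on, Fancd2 (0.62, adjusted p = 0.00464), the target of Usp1, and Atxn7 (0.61, adjusted p = 0.00464), of the SAGA module that holds Usp22, had the largest changes past the threshold. Isg15 had a larger one that did not pass (-0.79, adjusted p = 0.205). Among the 4 that fell were Polb, the repair polymerase that Usp47 acts on (log2 -0.41, adjusted p = 0.00789), and Cdc20 (-0.31, adjusted p = 0.0158, and up to 0.0602 when 1 library was left out). With the trend removed none of these 4 falls passed, and the direction of Cdc20 turned (0.08, adjusted p = 0.38). Of the 13 rises, Wdr20a (0.53, adjusted p = 0.0176) and Smad7 (0.46, adjusted p = 0.0161) remained. Gmps (-0.50, adjusted p = 0.00969) and G3bp1 (-0.32, adjusted p = 0.019) were then lower, but on the deposited values they had log2 changes of 0.16 (adjusted p = 0.195) and 0.03 (adjusted p = 0.79), so their directions turned too. The count of 13 fell to 6 without wild-type library 4, where the share of all genes that were higher fell from 17.3% to 10.8%.

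Ubb, which encodes a chain of ubiquitin units, fell. It held 11078, 10112 and 11389.7 in wild type and 7595, 7757 and 7053 in knockout (log2 -0.54, SE 0.09, adjusted p = 0.00242), without overlap. With the trend removed Ubb did not pass (-0.13, adjusted p = 0.28). Uba6, the second E1 enzyme for ubiquitin, held 353, 363 and 301 in wild type and 684, 658 and 671 in knockout (log2 0.99, adjusted p = 0.00107, and 0.34 with adjusted p = 0.108 after removal). Uba1, the main E1, overlapped, with means of 16449.8 and 16281 (log2 -0.02, adjusted p = 0.894). Uba7, the E1 for Isg15, had a log2 change of -0.45 (adjusted p = 0.0502). Rps27a, which encodes ubiquitin fused to a ribosomal protein, did not pass (log2 -0.08), and it has many processed copies in the genome, so its counting is uncertain.

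Promoter sequence was available in RefSeq windows (GRCm38.p6) for 35 of the 46 Usp genes, and it is shown for the 3 members with a window whose rise remained after the removal of the trend. The 120 bases before the annotated start are given 5′ to 3′ on the strand of the gene, with GC boxes (GGGCGG, or CCGCCC on the other strand) and CCAAT boxes (CCAAT or ATTGG) in capitals.
Usp34, chr11:23306775-23306894, plus strand: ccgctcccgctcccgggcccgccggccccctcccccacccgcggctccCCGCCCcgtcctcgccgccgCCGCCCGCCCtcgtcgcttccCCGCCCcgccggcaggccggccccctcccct
Usp12, chr5:146794957-146795076, minus strand: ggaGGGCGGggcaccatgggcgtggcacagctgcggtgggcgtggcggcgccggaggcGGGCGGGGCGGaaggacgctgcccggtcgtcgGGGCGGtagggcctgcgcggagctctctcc
Usp26, chrX:51801234-51801353, minus strand: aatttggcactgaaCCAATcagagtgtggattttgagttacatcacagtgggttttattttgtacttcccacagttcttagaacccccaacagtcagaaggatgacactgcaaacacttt

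The promoters of Usp34 and Usp12 are rich in GC boxes, while that of Usp26 has a CCAAT box and no GC box in this stretch. In the 250 bases before the start, searched on both strands, a GC box was present in 25 of the 35 Usp windows (71.4%), against 32.7% of all 32851 windows of the same length. CCAAT was present in 7 (20%, against 33.8%), the ETS motif CCGGAAG in 7 (20%, against 6.91%) and TATAAA in 2 (5.71%, against 12.4%). TGACGTCA, the cyclic AMP response element, was found in 1.55% of all windows and in 0 of the Usp windows. The median GC content of the Usp windows was 65.6% and that of all windows 52.4%. These matches describe the letters and are not evidence of binding.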

How the data were processed

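RNA sequencing libraries of whole male gonads were compared, 3 from wild-type and 3 from L/H-Pgds-/- embryos. Per the submitters' processing notes the tools were CASAVA 1.8.2 and edgeR 2.6.2 and the build mm9, with no aligner or counting rule given in the sources used here. The deposited values are a normalised signal per gene, upper-quartile scaled pseudo-counts made by the authors, with upper quartiles of 1484 to 1485 in all libraries. They are fractional and are not reads, so no count model was used and depth is unknown.

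The filter on low values kept genes that reached 10 in 3 or more libraries. They were tested on the log2(value + 1) scale in R 4.3.3, using limma 3.58.1 (mean-dependent prior, two-sided, Benjamini-Hochberg over 15116 genes, threshold 0.05). A fold change is on that scale and understates changes of low genes. To remove the trend on length and GC content, natural splines with 4 degrees of freedom each were fitted in every library over 14449 genes matched by NCBI gene number to GENCODE vM21, whose coordinates were not used. The tests were also tried on simulated data with known changes, independent noise, and either no trend or a trend on length alone. That setting differs from these data, so nothing is drawn from it here. Ratios of related genes used limma without the mean-dependent prior, and no adjustment over the pairs alone is given. The planned test over pairs was replaced by the interval and an exact permutation test.

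The members, the gene lists and the tests were chosen with earlier results of these data known. Values in every library are given for members past the threshold with and without the trend, for the 10 largest changes past the threshold, for the 5 highest levels per kilobase, for those that fell, and for pairs that stood apart. Those of Usp3, Usp14 and Usp51 were added after their values were seen. Other deubiquitinases, partners and endothelial markers are named by their 3 largest changes past the threshold, with Wdr20a, Wdr48, Isg15, Polb, Cdc20, Smad7, Gmps, G3bp1, Josd2, Mpnd, Otub2 and Brcc3 added likewise, and ubiquitin and E1 genes without that limit. The other marker lists, to which the rule also applied, are given by counts, with sums for some of them, and their genes are not named. Some listed genes are not reported here. Alternatives covered the pseudocount (0.5, 5 and 10), the filter (none, 50), the scaling, library weights, the prior, a threshold of 0.1 and each library left out.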

Additional observations from a re-analysis of the deposited data

How the results depend on the processing

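No paired analysis was possible because the labels do not say which libraries share a litter, and the wild-type and knockout libraries share no replicate number. Any effect of litter was therefore not modelled. Scaling to equal totals moved the median log2 change of all genes from -0.03 to 0.07, that of the Usp genes to 0.41, and the count of all lower genes to 1690. The 2 Usp genes that fell became 1 with no filter on low values or median-of-ratios scaling, and 0 with equal totals, quantile normalisation or a prior without a mean trend. Lower partners numbered 1 with equal totals and 2 with quantile normalisation or that prior. Of all genes, 2486 were lower with no filter, 2355 with median-of-ratios scaling, 2417 with quantile normalisation and 1944 with that prior, against 2571 with the settings used above. With that prior 18 Usp genes were higher, against 24, and 2130 of all genes, against 2609. Library weights gave 14 of 34 other deubiquitinases higher and 8 lower, and 3550 of all 15116 genes higher and 3693 lower. With the length and GC trend removed, counts of higher and lower were 5 and 2 for Usp genes, 878 and 959 for all genes, 1 and 1 for other deubiquitinases and 2 and 2 for partners, and the Usp median was 0.10. With wild-type library 1 also left out, they were 4 and 2, 842 and 881, 1 and 1, and 2 and 2, and the median was 0.063. Leaving out 1 library at a time gave 15 to 20 Usp genes higher and 0 to 1 lower, 1635 to 2495 genes higher and 1397 to 2546 lower, 5 to 9 other deubiquitinases higher and 3 to 6 lower, 6 to 13 partners higher and 1 to 4 lower, and a Usp median of 0.30 to 0.35. The cause of these differences was not tested.

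Directions that turned among the named genes are listed with their log2 change. With the trend removed, and then also without wild-type library 1, they were -0.26 and -0.28 for Usp15, -0.026 and -0.0046 for Usp54, -0.10 and -0.13 for Usp7, -0.34 and -0.37 for Usp14, -0.22 and -0.21 for Usp37, -0.12 and -0.091 for Usp40, 0.16 and 0.18 for Usp21, -0.36 and -0.17 for Usp13, -0.093 and -0.18 for Usp24, 0.17 and 0.32 for Usp18, 0.033 and 0.13 for Usp35, -0.11 and -0.084 for Usp47, 0.32 and 0.28 for Rps27a, 0.085 and 0.084 for Cdc20, -0.50 and -0.55 for Gmps, and -0.32 and -0.32 for G3bp1. In the former fit alone it was -0.018 for Ahsa2, and in the latter alone -0.0092 for Usp30, -0.035 for Usp38 and 0.29 for Isg15. With equal totals they were 0.014 for Brcc3, 0.021 for Usp18, 0.057 for Usp35, 0.083 for Usp3, 0.022 for Usp4, 0.086 for Usp11, 0.016 for Rps27a and 0.082 for Uba1. With quantile normalisation they were 0.047 for Usp4, 0.066 for Usp11 and 0.25 for Uba1, and with library weights 0.24 for Usp18, 0.024 for Usp3 and 0.015 for Usp11. Median-of-ratios scaling gave 0.0019 for Usp11. Leaving out 1 library gave -0.092 to 0.21 for Usp13, -0.30 to 0.31 for Usp18, -0.14 to 0.039 for Usp35, -0.041 to 0.017 for Usp3, -0.10 to 0.086 for Usp11, -0.43 to 0.28 for Rps27a and -0.10 to 0.031 for Uba1. In the first test, on the deposited values, none of these genes had passed the threshold in the opposite direction except Usp15, Usp24, Usp37, Usp38, Usp47, Usp54 and Cdc20. With the trend removed, Usp3, Usp14, Brcc3, Gmps and G3bp1 passed it as lower. The number of reads is unknown, so a limit set by depth could not be computed.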
